A study of Caenorhabditis elegans with 2 samples.

Results

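The X chromosome of Caenorhabditis elegans held 207 promoter peaks of the transcriptional corepressor CTBP-1 in L4 larvae. They were drawn from the 627 X peaks of a list of 2927 reproducible peaks made from both replicates together. The summit, the base of highest signal in a peak, had to lie between 1000 bp upstream and 250 bp downstream of the 5' end of a protein-coding transcript. A further 148 X peaks with a tRNA gene within 200 bp of the summit were left out, 25 of them inside such a window, so 479 summits remained and 272 of these fell outside promoters. The same rule gave 1028 promoter peaks on the 5 autosomes, out of 2123 summits away from tRNA genes.

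Chromatin immunoprecipitation with sequencing (ChIP-seq) was done on whole animals of strain RW12203, in which CRISPR insertion placed a TY1, EGFP and 3xFLAG tag in ctbp-1 at its own locus on X. Larvae were collected 48 hours after synchronisation as starved L1 animals, chromatin was sonicated, and, per the sample descriptions, an antibody against GFP was used. The antibody field of the labels names ctbp-1. There was 1 group with 2 biological replicates, no second condition, and no untagged or input sample among the samples analysed here. Whole animals mix all tissues, so a peak cannot be assigned to a cell type, and signal from few strongly bound cells cannot be told apart from weak signal in many.

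CTBP-1 belongs to the C-terminal binding protein family of corepressors, which resemble dehydrogenases and are brought to DNA by sequence-specific transcription factors. In worms CTBP-1 also carries a THAP domain, a kind of zinc finger, and it is best known for roles in neurons. The X chromosome differs from the autosomes in that a condensin-like dosage compensation complex binds it in hermaphrodites and lowers its expression, loading at recruitment elements that hold a conserved sequence motif.

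Sequences at 10 summits are shown as 3 sets, chosen by strength and by the words described further on. The sets are examples and not separate classes, since a summit can hold more than one word. Each run below covers 75 bp on either side of the summit, 151 bp in all, on build WBcel235 (the coordinates of ce11), read 5' to 3' on the strand of the gene named, and none overlaps an annotated coding or untranslated exon. The first set is from members among the 4 strongest, which held no GAGAGA on either strand and no other capitals.
puf-9, chrX:5841239-5841389, plus strand: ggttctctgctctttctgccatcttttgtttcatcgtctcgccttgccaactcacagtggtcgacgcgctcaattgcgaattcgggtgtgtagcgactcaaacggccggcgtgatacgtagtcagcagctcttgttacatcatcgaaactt
serp-1.1, chrX:15841205-15841355, plus strand: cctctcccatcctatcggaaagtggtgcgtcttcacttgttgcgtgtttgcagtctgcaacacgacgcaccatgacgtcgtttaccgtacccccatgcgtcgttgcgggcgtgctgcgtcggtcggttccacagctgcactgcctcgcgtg
epn-1, chrX:14818916-14819066, minus strand: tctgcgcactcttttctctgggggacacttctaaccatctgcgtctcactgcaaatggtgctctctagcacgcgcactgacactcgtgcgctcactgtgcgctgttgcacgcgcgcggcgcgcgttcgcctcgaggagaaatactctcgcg

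The second set is from strong members that held GAGAGA, or TCTCTC on the other strand. GAGAGA is among the words that X promoter summits held more often than autosomal ones. Capitals mark each copy.
ain-1, chrX:16612470-16612620, plus strand: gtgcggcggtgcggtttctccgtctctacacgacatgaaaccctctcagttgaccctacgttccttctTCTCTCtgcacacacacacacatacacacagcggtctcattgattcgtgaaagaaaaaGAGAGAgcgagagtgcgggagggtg
spc-1, chrX:3127711-3127861, minus strand: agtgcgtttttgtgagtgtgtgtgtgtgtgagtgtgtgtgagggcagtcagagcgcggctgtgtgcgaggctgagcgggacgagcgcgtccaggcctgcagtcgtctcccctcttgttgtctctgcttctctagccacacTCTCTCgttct
dpy-23, chrX:4388943-4389093, plus strand: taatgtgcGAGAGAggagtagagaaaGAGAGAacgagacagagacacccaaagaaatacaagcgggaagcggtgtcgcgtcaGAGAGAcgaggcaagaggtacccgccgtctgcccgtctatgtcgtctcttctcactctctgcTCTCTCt
lfi-1, chrX:4982118-4982268, plus strand: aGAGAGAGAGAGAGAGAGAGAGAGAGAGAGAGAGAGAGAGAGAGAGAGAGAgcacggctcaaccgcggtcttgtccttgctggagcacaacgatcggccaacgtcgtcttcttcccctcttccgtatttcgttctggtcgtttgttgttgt

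The dpy-23 summit carried 4 copies, spread over its window on both strands. The lfi-1 window held an unbroken run of 52 alternating G and A bases, which began at the window's first base, so its full length was not measured. Within the windows it was the longest such run among the members and far beyond the next, 18 bases at unc-7. The third set is from members with GCGCAGGG, or CCCTGCGC on the other strand, the core letters of the X recruitment motif of the dosage compensation complex, in capitals.
nspc-17, chrX:14525809-14525959, minus strand: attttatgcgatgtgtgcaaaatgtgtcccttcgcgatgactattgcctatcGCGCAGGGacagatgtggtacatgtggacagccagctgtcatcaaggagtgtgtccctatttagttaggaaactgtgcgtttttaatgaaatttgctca
ins-39, chrX:1344984-1345134, minus strand: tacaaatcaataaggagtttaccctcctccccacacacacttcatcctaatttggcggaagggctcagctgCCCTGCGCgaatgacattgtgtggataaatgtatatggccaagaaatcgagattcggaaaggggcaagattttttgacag
svh-5, chrX:15373923-15374073, minus strand: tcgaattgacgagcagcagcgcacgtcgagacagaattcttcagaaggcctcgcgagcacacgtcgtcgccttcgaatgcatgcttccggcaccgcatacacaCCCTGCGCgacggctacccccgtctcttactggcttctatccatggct

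The strength of a peak is given as the authors' own signal value, whose scale the labels and files do not state; the read depth is likewise unknown. It is used only to rank peaks within a list and to set a peak's 2 replicate values side by side. The median signal was 92.7 over the X promoter peaks (quartiles 70.6 and 134) and 85.3 over autosomal promoter peaks (quartiles 68.4 and 124). The distributions overlapped almost wholly, and the X median lay just above the highest of the 5 autosomal medians, which ran between 79.8 on IV and 92.4 on I. Of the 207 members, 120 fell in the stronger 50% of all promoter peaks, 60 in the strongest 25% and 23 in the strongest 10%. Each replicate also had its own thresholded list, with 1404 and 1715 peaks in replicates 1 and 2. A member overlapped a peak of both lists by at least 1 bp in 84 cases, or 40.6% (Wilson 95% interval 34.1 to 47.4), against 389 autosomal promoter peaks, or 37.8% (34.9 to 40.8). Over all nuclear peaks away from tRNA genes that share was 34.2%, so the X members stood near the background. These intervals cover the counting of peaks only.

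The strongest X promoter peak, ranked 5 among promoter peaks of all chromosomes, lay 703 bp upstream of nspc-17, which encodes a nematode-specific peptide of a repeated gene family. Its signal was 528, with 259 and 255 in the full ranked lists, before thresholding, of replicates 1 and 2, so the replicates were nearly equal. Genes of such a family share sequence. Whether the sequence at the summit is repeated, so that reads may have been placed among copies, was not tested. The treatment of such reads is not stated in the labels or file headers. The second, 278 bp upstream of puf-9, a Pumilio-family RNA-binding protein, had a signal of 368, with 152 and 209 in replicates 1 and 2. The third, 292 bp upstream of serp-1.1, whose name marks homology to a small membrane protein of the endoplasmic reticulum (ER), had 358, with 183 and 169. After these 3 the values fell off evenly.

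The peak upstream of epn-1, the clathrin adaptor epsin, had a signal of 269, with 120 in replicate 1 and 147 in replicate 2. That of spat-3, a RING finger protein related to Polycomb repressive complex 1, had 244, with 96.6 and 146. For ain-1, a GW182-type partner of the microRNA Argonautes, it was 239, with 99.0 and 143. In each of these the value was higher in replicate 2. For epg-7, an autophagy scaffold, the signal was 237, with 113 and 128 in replicates 1 and 2. For T13C5.6, known here by sequence name alone, it was 236, with 115.6 and 118. For spc-1, the alpha spectrin of the membrane skeleton, it was 233, with 98.3 and 132, and for hsp-3, an ER chaperone of the HSP70 family, also 233, with 111 and 127.

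The 10 that follow in rank lay between 198 and 227. They were zfp-3 (a zinc finger protein), C14A11.9, F46H5.2, dpy-23, F17E5.2, eef-1A.2 (translation elongation factor 1 alpha), ins-39 (an insulin-like peptide), sms-2 (a sphingomyelin synthase), nhr-48 (a nuclear hormone receptor) and ZC506.1. Among the 20 strongest, the value was higher in replicate 2 at 14. The clearest exceptions were ins-39, with 124 in replicate 1 and 87.5 in replicate 2, and ZC506.1, with 124 and 77.5. All 20 overlapped a peak of both replicates' own lists, were intergenic and lay upstream of the 5' end, and 11 held GAGAGA. The plot of the 20 strongest shows that the replicate values kept close to each other relative to the spread between genes.

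**Figure D1:**
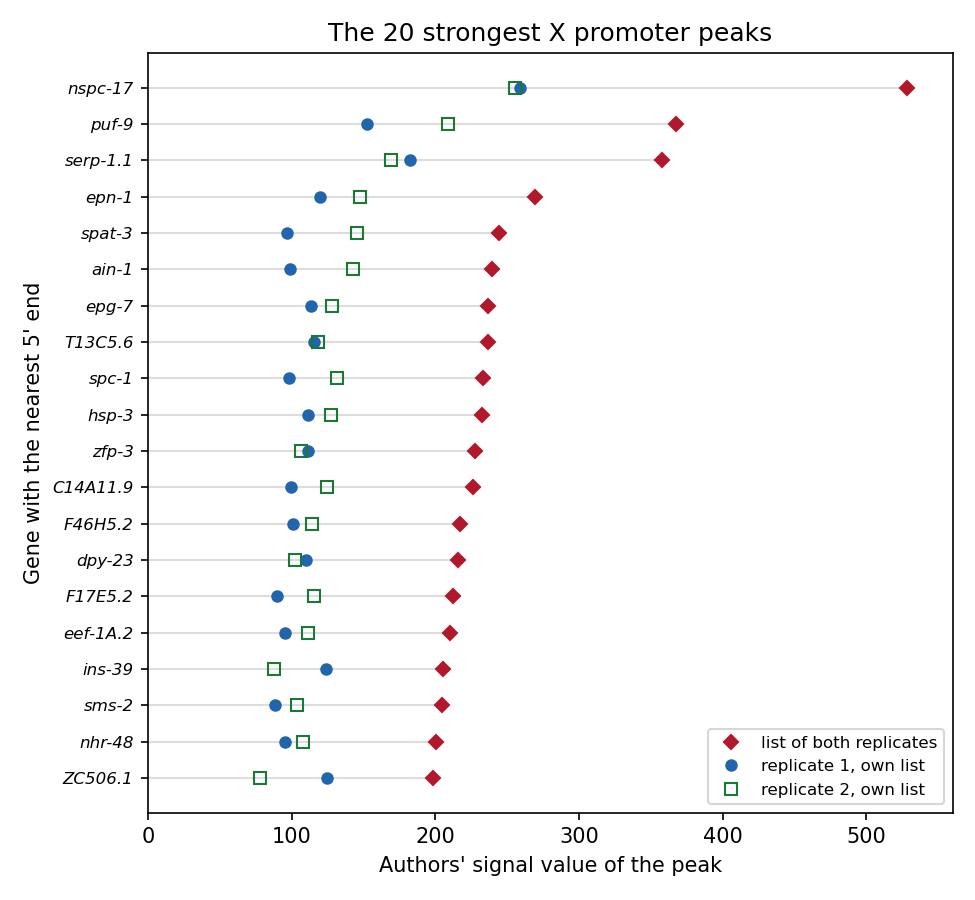
Authors' signal value (horizontal axis, no unit given) of the 20 strongest X promoter peaks, by the gene with the nearest 5' end. Diamonds are the list of both replicates. Circles and squares are the full ranked lists, before thresholding, of replicate 1 and replicate 2. nspc-17 stands alone at 528, puf-9 and serp-1.1 follow at 368 and 358, and the rest lie between 198 and 269.

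Of 2731 protein-coding genes on X, 203 had at least 1 member in a promoter window, or 7.43% (6.51 to 8.48), against 1146 of 17242 autosomal genes, or 6.65% (6.28 to 7.03). The X share lay inside the range over single autosomes, 4.25% on V to 9.47% on III. Functional lists were then read against the X value of 7.43%. The lists together covered 406 distinct X genes, of which 56 had a peak, or 13.8%, against 147 of 2325 X genes in no list, or 6.32%. The lists hold named, mostly well-studied genes, and they were chosen with earlier results of these data known. Whether either bears on the gap was not tested.

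Genes of timing and gene regulation were a mixed group. Of 8 heterochronic genes on X, which set developmental timing, 3 had a peak, against 6 of 15 on autosomes. These were puf-9, ain-1 and lin-14, whose product holds cells in the first larval programme. The lin-14 peak had a signal of 75.4, with 35.9 in replicate 1 and 36.8 in replicate 2, and lay in neither replicate's own list, unlike the other 2. Nuclear hormone receptors, ligand-regulated transcription factors, had peaks at 5 of 27 X genes. The autosomal count for these receptors was 9 of 247. The strongest were nhr-48 (200, with 95.03 and 107.7 in replicates 1 and 2), nhr-40 (188, with 84.5 and 88.5) and nhr-1 (141, with 81.2 in replicate 1 and no summit within 100 bp in replicate 2).

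None of 27 homeobox factor genes on X had a peak, against 5 of 69 on autosomes. The X list is short, and 7.43% of all X genes had a peak. Other transcription factors had peaks at 5 of 40 X genes and 16 of 147 autosomal ones. The X genes were led by mdl-1, a Mad-like partner of Max (163, with 88.6 and 80.3 in replicates 1 and 2), atf-6, a sensor of ER stress (160, with 62.8 and 91.8), and cebp-1 (107, with 54.2 and 48.198). Corepressor and chromatin genes had 3 of 22 on X, against 27 of 97 on autosomes. They were bet-2, a bromodomain protein (184), sir-2.2, a sirtuin (64.4), and set-20, a SET domain protein (58.3).

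Genes of the X signal and of dosage compensation had peaks at 2 of 6 X members, against 1 of 8 on autosomes. One was sdc-2, which brings the dosage compensation complex to X, with a signal of 88.9, and 50.7 and 38.1 in replicates 1 and 2. The other was fox-1, an RNA-binding X signal element, with 61.6, and 23.5 and 29.3. The sdc-2 peak was in the own list of replicate 1 but not of replicate 2, and the fox-1 peak in neither, and both signals were below the member median of 92.7.

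Membrane traffic genes were the list with the most X genes that had a peak, 7 of 19, against 25 of 98 on autosomes. In the own list of either replicate alone the count was 4, no higher than that of nuclear hormone receptors or of cytoskeleton genes. Of these, 3 encode subunits of the AP-2 clathrin adaptor, which gathers cargo at the plasma membrane. They were dpy-23, the mu subunit (216, with 110 and 102 in replicates 1 and 2), apa-2, the alpha subunit (154, with 69.99 and 79.8), and aps-2, the sigma subunit (73.6, with 46.1 and 33.8). Only the first 2 were in both replicates' own lists. The Rab GTPase gene rab-14 had 176, with 90.95 and 83.5, and its summit lay in windows of both rab-14 and its neighbour nipi-3. The members sec-16A.2, sec-22 and sec-3 lay between 63.05 and 84.0.

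All 3 proton-pump (V-ATPase) genes on X had a peak, against 4 of 18 on autosomes. For vha-15, a subunit of the catalytic part, the signal was 111, with 44.1 and 67.0 in replicates 1 and 2. For vha-12 it was 105, with 56.6 and 52.8. The third, vha-20, had 53.7, with 22.4 in replicate 1 and no summit within 100 bp in replicate 2, and lay in neither own list. With 3 genes, the share rests on few values.

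Chaperone genes had 2 of 5 on X, hsp-3 and dnj-14 (89.8, in the own list of replicate 2 alone), against 21 of 70 on autosomes. Of 2 ribosomal protein genes on X, 1 had a peak, rpl-11.2 (196, with 88.8 and 106 in replicates 1 and 2), against 37 of 79 on autosomes. Of 3 translation factor genes, eef-1A.2 alone had a peak (210, with 95.6 and 111), against 9 of 39 on autosomes. Respiratory chain genes had 3 of 6 on X, against 16 of 47 on autosomes, namely ucr-2.2 (135), sdha-1 (134) and asg-2 (77.2).

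RNA-binding genes had 3 of 9, against 17 of 90 on autosomes: puf-9, pab-2 (a poly(A)-binding protein, 109) and fox-1. Cytoskeleton genes had 4 of 18, against 17 of 69, led by spc-1, unc-115 (an actin-binding protein of axons, 195) and act-4 (an actin, 126). Muscle genes had 3 of 16, against 4 of 35: act-4 and the troponin T genes mup-2 (98.1) and tnt-2 (85.8). Kinases and small GTPases had 4 of 26, against 13 of 85, led by kin-29 (a salt-inducible kinase, 175), mbk-1 (68.3) and akt-2 (64.8), of which kin-29 alone was in both replicates' own lists.

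The synapse and axon list had 4 of 18 X genes, unc-115, cab-1 (152), syd-2 (liprin alpha of the presynaptic active zone, 142) and unc-18 (a syntaxin partner in vesicle fusion, 79.2), against 14 of 50 on autosomes. Ligand-gated receptors had 4 of 30, or 13.3%, against 4 of 82, or 4.88%, on autosomes. Their signals were near or below the member median, lgc-47 (93.3), lev-8 (81.4), glr-6 (77.2) and acr-2 (70.5), and none was in both own lists. In the own lists of replicates 1 and 2 alone, 0 and 1 of the 30 had a peak. The glr-6 summit was also that of asg-2, whose 5' end was nearer. Channels and gap junctions had 2 of 32, or 6.25%, against 3 of 76: slo-2, a potassium channel (96.7), and unc-7, an innexin (82.2), and the own list of replicate 2 alone held neither. Of 37 neuropeptide and insulin genes only ins-39 had a peak, against 2 of 107 on autosomes.

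No peak was found at the 34 chemoreceptor, 30 cuticle collagen and 3 Wnt pathway genes on X. The autosomal counts for these lists were 10 of 1276, 5 of 150 and 5 of 26, and no proteasome gene lies on X. The X Wnt list is very short beside the 7.43% of all X genes with a peak. In a second series-level list, named conservative by the authors, 1 of its 3 genes had a peak. The bar plot of the lists shows them in order of the X share.

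**Figure D2:**
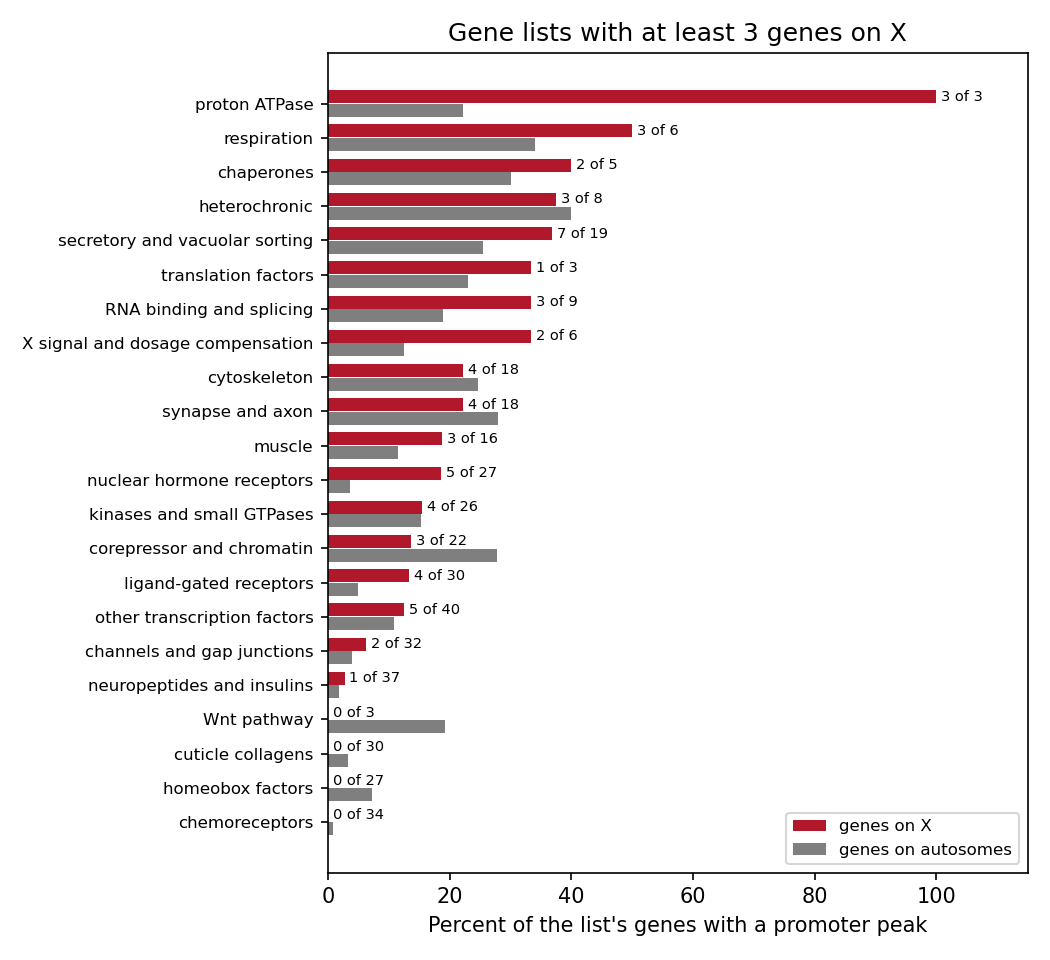
Percent of each list's genes with a promoter peak (horizontal axis, from 0), on X (red, with counts) above autosomes (grey), for lists with at least 3 genes on X. The V-ATPase list is at the top with 3 of 3 and chemoreceptors, homeobox factors, cuticle collagens and Wnt genes at the bottom with none on X.

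The tagged gene itself had no member. The nearest, the puf-9 peak, lay 21394 bp from the nearest 5' end of ctbp-1. Within the promoter windows of ctbp-1 the series-level list before thresholding held 3 weak peaks, the strongest with a signal of 29.8, against a median of 92.7 over members.

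Members lay all along X, which was divided into 18 bins of 1 Mb, the last one partial. The most, 21, lay between 14 and 15 Mb, where nspc-17 and epn-1 are, and 19 each lay between 4 and 5 Mb and between 5 and 6 Mb. The fewest, 6, lay between 1 and 2 Mb and between 12 and 13 Mb. Read per gene, the share of genes with a peak ran between 3.85% in the 12 to 13 Mb bin and 12.5% in the 5 to 6 Mb bin. The 4 fullest bins had also the 4 largest shares, with 12.4% at 4 to 5 Mb, 11.3% at 14 to 15 Mb and 11.6% at 15 to 16 Mb. Neighbouring members were a median of 45184 bp apart, and the longest stretch without one was 526636 bp, up to the apa-2 peak.

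Not all members are separate sites. In 13 cases the next member lay only 199 to 207 bp away at the same gene, a weak summit beside a strong one, as at epn-1 (269 and 23.9), ain-1 (239 and 96.6) and M60.6 (94.7 and 2.86). A stronger summit lay under 250 bp away for 14 members, or 6.76%, against 74 autosomal promoter peaks, or 7.20%. All 10 members with a signal under 25 were of this kind. Their overlap with a replicate's list may be with the strong neighbour's peak. Without the weaker summits 193 members remained, and 38.9% of them overlapped a peak of both own lists, against 38.6% of autosomal promoter peaks treated alike.

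Of the 479 X summits away from tRNA genes, 43.2% (38.9 to 47.7) lay in promoter windows, against 48.4% (46.3 to 50.5) on autosomes. The X share was below that of each autosome, which ran between 47.0% on III and 50.6% on IV. Windows cover 22.7% of the X sequence and 28.0% of the autosomes. Relative to that cover the X share was 1.91 times as high, against 1.52 to 1.90 times on single autosomes, so the X share was lower as such and not relative to the windows' cover. X also has fewer protein-coding genes per Mb, 154, against 188 to 239 on single autosomes.

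Within the window, X summits sat somewhat farther from the gene. The median position was 275 bp upstream of the nearest 5' end, against 218 bp on autosomes. On X 193 members, or 93.2% (88.97 to 95.9), were upstream, against 86.96% (84.8 to 88.9). More than 500 bp upstream lay 28.5% (22.8 to 35.0) of X members, against 21.9% (19.5 to 24.5), and within 100 bp of the 5' end 19.3% (14.5 to 25.2), against 24.5% (21.98 to 27.2). The histogram of positions shows that the X peaks had a smaller share of summits downstream of the 5' end and a larger one in the far upstream bins.

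**Figure D3:**
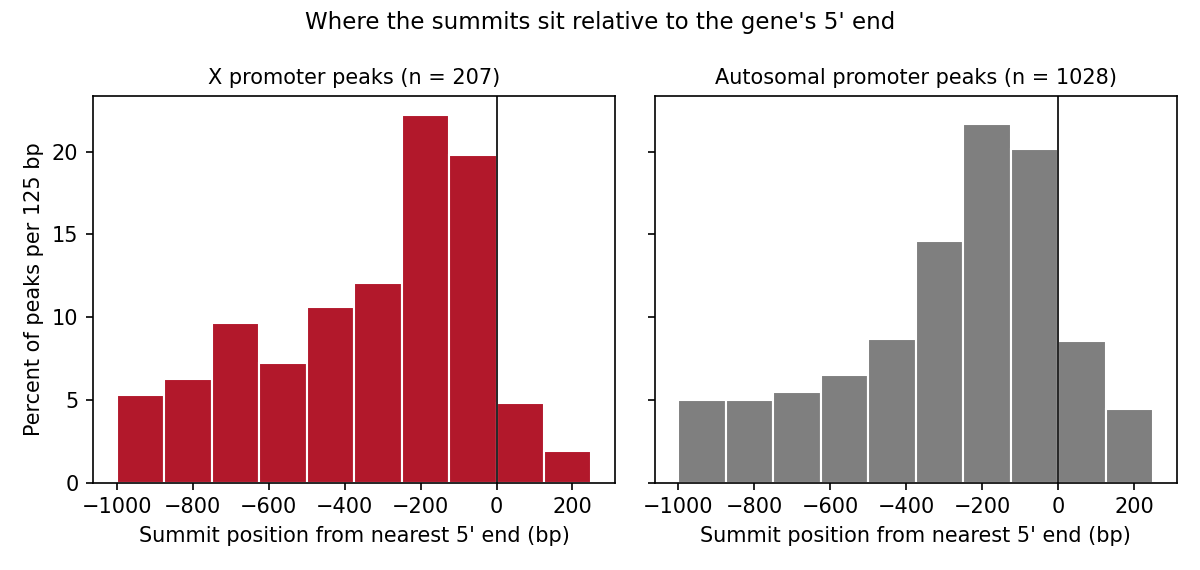
Percent of promoter peaks (vertical axis, from 0) by summit position from the nearest 5' end in bp (horizontal axis, negative is upstream), for 207 X peaks at the left and 1028 autosomal peaks at the right. Upstream of the 5' end lie 93.2% of X summits, against 86.96% of autosomal summits.

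Promoter arrangement differed between X and autosomes, with intervals far apart. Only 12 members, or 5.80% (3.35 to 9.86), lay in windows of genes on both strands, as between diverging genes, against 240, or 23.3% (20.9 to 26.03), on autosomes. The windows themselves differ in the same direction: 3.36% of window bases on X are in windows of both strands, against 10.1% on autosomes. Summits were intergenic for 76.8% (70.6 to 82.0) of members, against 65.6% (62.6 to 68.4), and in an exon for 7.25% (4.44 to 11.6), against 15.8% (13.7 to 18.1). Of the window bases, 53.7% are intergenic on X and 43.9% on autosomes, and 23.2% and 32.1% are exonic. On X as on autosomes the summits were thus intergenic more often, and exonic less often, than the windows that hold them. The X members in windows of both strands had a median signal of 89.3, against 92.9 for the other 195.

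**Figure D4:**
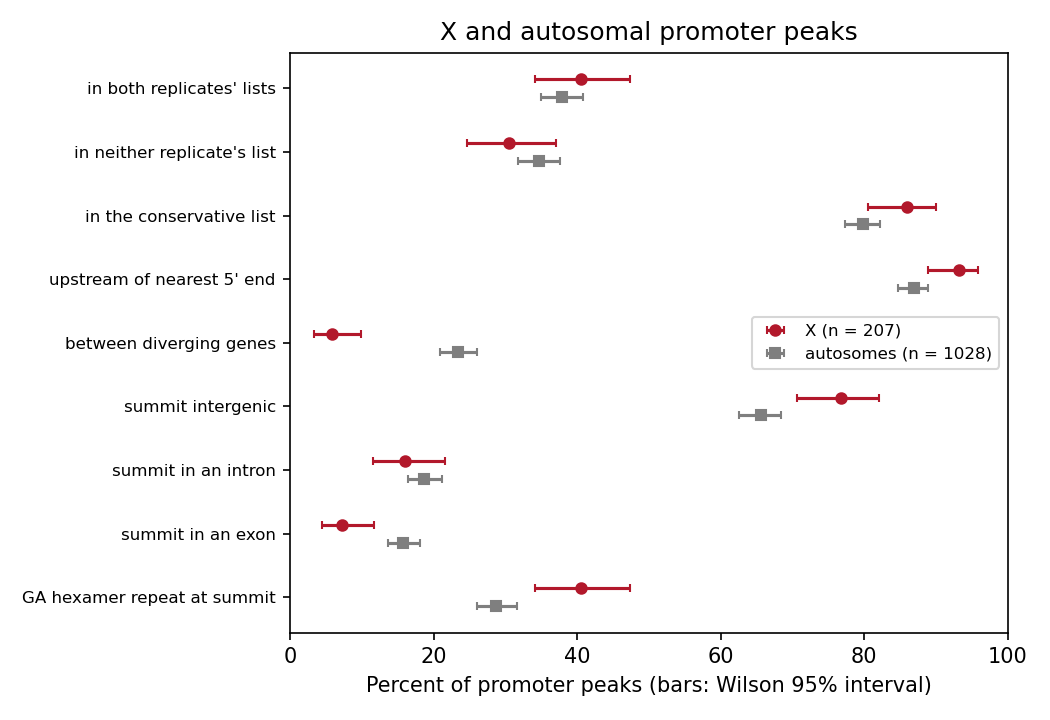
Percent of promoter peaks with a feature (horizontal axis, bars are Wilson 95% intervals), for 207 X peaks (circles) and 1028 autosomal peaks (squares). The intervals lie apart for windows of diverging genes, for intergenic and exonic summits and for the GA repeat word, narrowly also for summits upstream, and overlap for the shares in both, or in neither, replicate's own list.

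The base composition at the summits differed as well. The 151 bp around X summits averaged 49.8% G and C (SD 6.91, n = 207), against 45.3% (SD 7.87, n = 1028) on autosomes. Windows placed at all promoters, 75 bp upstream of the 5' end, had 35.2% on X and 33.7% on autosomes. Of 7 words or word groups searched on both strands, GAGAGA was found at 84 X summits, or 40.6% (34.1 to 47.4), against 295, or 28.7% (26.01 to 31.5), at autosomal ones. It occurred at 12.7% of all X promoters and 13.0% of all autosomal promoters in windows of the same length 75 bp upstream. In windows 300 bp upstream it occurred at 11.4% and 9.37%. Single autosomes ran between 21.4% on II and 32.98% on V, all below X. The share followed the peaks' strength, with 52.9%, 44.2%, 32.7% and 32.7% over the X members in 4 classes of near-equal size by falling signal, and 34.6%, 31.1%, 26.8% and 22.2% on autosomes. Among members with GAGAGA, 50% overlapped peaks of both own lists, against 40.6% of all members. Members with the word also had a higher median signal than those without it, and such overlap was most frequent among the strongest members. Whether the word bears on the overlap apart from strength was not tested. In promoters of 1 direction alone the shares of summits with GAGAGA were 42.1% on X and 30.5% on autosomes.

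The word GCGCAGGG, the core of the X recruitment motif of dosage compensation, was found at 4 members, or 1.93% (0.754 to 4.86), against 1 autosomal promoter peak, on III. Of 4114 windows at all X promoters, 2 held it when centred 75 bp upstream of the 5' end and 4 when centred 300 bp upstream, or 0.0486% and 0.0972%. These windows do not reach as far upstream as the summits of 3 of the 4 members. The 4 were nspc-17, ins-39, R04E5.9 and svh-5, with signals of 528, 205, 136 and 90.0, and the sequences of 3 are printed above. The R04E5.9 summit lay 14 bp downstream of a 5' end, within an exon, with 72.7 and 63.3 in replicates 1 and 2. For svh-5, whose summit lay 937 bp upstream and within an intron, replicate 1 gave 40.9 and replicate 2 gave 48.5. Whether the dosage compensation complex lies at these sites was not measured here.

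CACGTG, the word of many basic helix-loop-helix factors, was at 1.93% (0.754 to 4.86) of X summits and 5.06% (3.88 to 6.57) of autosomal ones. This rests on 4 X summits, and the X share was 3.76% in the own list of replicate 2, against 4.94%, and 0.943% in that of replicate 1, against 4.13%. All X promoters also held CACGTG less often, at 2.19% against 3.47% of autosomal ones in windows 75 bp upstream. In windows 300 bp upstream the shares were 2.31% and 2.70%. TGATAA, the word of GATA factors, was at 2.42% and 6.71%, and TTTCAG, the letters of worm splice acceptors, at 5.80% and 15.5%. In the own lists of replicates 2 and 1 TGATAA was at 3.76% and 3.77% of X summits, against 6.06% and 5.31% of autosomal ones. Both of these words were rarer at summits than at all promoters. In windows 75 bp upstream, all promoters held TGATAA at 17.1% on X and 17.5% on autosomes, and TTTCAG at 30.4% and 34.5%. In windows 300 bp upstream, TGATAA was at 16.5% and 15.1%, and TTTCAG at 18.3% and 26.9%. All X promoters thus also held TTTCAG less often than all autosomal ones. The remaining word groups were about as frequent on X as on autosomes: CCACCC or CCGCCC, of KLF and SP factors, at 18.4% and 14.98%, and TTCCCGC or TTCGCGC or TTGCCGC or TTGGCGC, of E2F, at 13.5% and 12.3%. The word matches are letters in a window and do not show which factor was bound.

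Replicate agreement on X was much as on the autosomes. Replicate 1's own list overlapped 107 members, or 51.7%, and replicate 2's 121, or 58.5%, against 47.8% and 55.4% of autosomal promoter peaks. In 23 cases only replicate 1's list held the member, in 37 only replicate 2's, and in 63, or 30.4% (24.6 to 37.01), neither did, against 34.6% (31.8 to 37.6) on autosomes. A second series-level list, named conservative by the authors, had 2775 peaks. It had a summit at the same base for 178 members, or 85.99% (80.6 to 90.1), against 79.9% (77.3 to 82.2) on autosomes. This match is stricter than an overlap of at least 1 bp. Since the members came from a list made from both replicates together, neither these overlaps nor the shared summits are independent checks. Agreement lay with the strong peaks: of the 51 strongest members 49 were in both own lists, of the next 52 there were 27, and of the 52 after these there was 1. The weakest 52, which include the second summits beside strong peaks, had 7.

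In the replicates' full ranked lists, before thresholding, a summit within 100 bp was found in both replicates for 181 members, or 87.4%, against 895 autosomal peaks, or 87.1%. Their signals correlated across peaks with a Spearman rho of 0.69 on X and 0.68 on autosomes, as a description over peaks that share libraries. The value was higher in replicate 2 at 114 of the 181, or 62.98% (55.7 to 69.7), against 494 of 895, or 55.2% (51.9 to 58.4), on autosomes. The median log2 ratio of replicate 2 over replicate 1 was 0.15 (SD over peaks 0.53) on X and 0.05 (SD 0.56) on autosomes. The replicates were within 2-fold of each other at 95.03% of X pairs and 92.7% of autosomal ones.

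**Figure D5:**
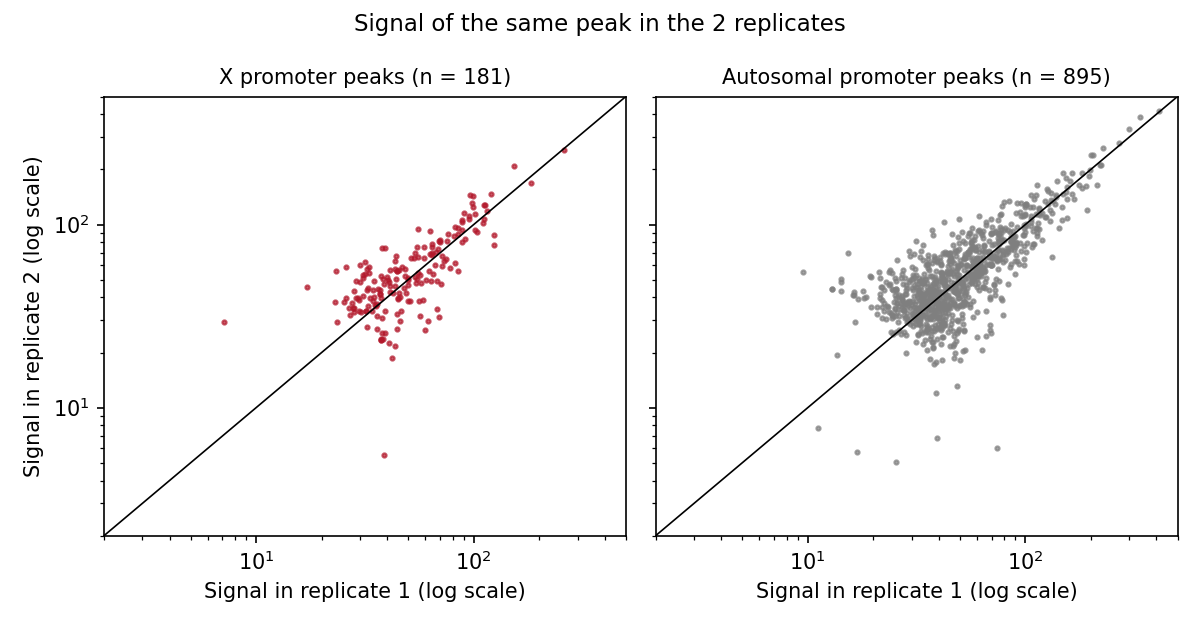
Signal of the same promoter peak in replicate 1 (horizontal log axis) and replicate 2 (vertical log axis), for 181 X peaks at the left and 895 autosomal peaks at the right, where both replicates' ranked lists held a summit within 100 bp. The line marks equal values, the X points lie along it with a rho of 0.69, and the second summits at nspc-17 and rgs-6 fall far from it.

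The lowest log2 ratios were at the second nspc-17 summit, whose series-level signal was 95.2 (-2.81, with 38.5 in replicate 1 and 5.49 in replicate 2), C14F11.4 (-1.18, with 42.1 and 18.6) and slo-2 (-1.16, with 59.7 and 26.7). The highest were at the second rgs-6 summit (2.04, with 7.13 and 29.3), ergi-3 (1.41, with 17.2 and 45.6) and C16H3.3 (1.26, with 23.2 and 55.8). Some strong members, here chosen after their values were seen, lacked a paired summit. In replicate 1, bet-2 (184) and grk-1 (171) had none within 100 bp, with the nearest at 143 and 124 bp, within a ranked peak that overlapped the member. In replicate 2 the same held for syd-2 (142) and nhr-1 (141), and for the weaker vha-20 (53.7). At rme-4 (an endocytosis factor, 133), replicate 1 had no ranked peak at all over the summit.

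The cut at 1000 bp fell among peaks of differing strength, and a peak as strong as the leading members lay just outside it. Just inside lay the summits of mgrn-1 at 973 bp upstream (116.2), ZC449.4 at 960 bp (83.3) and K09E9.1 at 948 bp (63.98). Just outside lay F09C8.2 at 1004 bp (145), fbxb-58 at 1006 bp (247) and ugt-50 at 1007 bp (67.7). A weak second summit of the fbxb-58 peak, with a signal of 5.35, is itself a member, while the strong one is not. At the tRNA cut no member lay close: the nearest were C16H3.3 at 684 bp from a tRNA gene and unc-18 at 1487 bp. The nearest left out were ZK1193.2 at 91 bp (166) and C28G1.2 at 80 bp (219).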

How the data were processed

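The deposited files are narrowPeak peak lists on ce11, per the labels. The series-level list came from the alignments of both replicates and each replicate's lists from that replicate alone, as the deposited file listings state. IDR, the irreproducible discovery rate, keeps peaks ranked alike in 2 inputs. Aligner, peak caller and depth: not given in the sources used here. Signal values are the authors' own, with scaling not stated, and no read counts were used. The ranked lists also hold 16 columns of signals and summits of single inputs, which were not used.

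Summits were classified against Ensembl release 115 (WBcel235, 19973 protein-coding genes, 29314 transcript 5' ends). Motifs were searched within 75 bp of the summit, with base sequence from the RefSeq copy of the same assembly. Replicate values were the nearest ranked summit within 100 bp. Shares have Wilson 95% intervals. With 1 group of 2 replicates no test was made and no p-value is given. The biological replicate numbers come from the labels. Scripts ran in Python 3.11.15 with numpy 2.4.6, pandas 2.3.3, scipy 1.17.1 and matplotlib 3.10.9, and were tested on simulated summits.

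The members, the 24 gene lists and the words were chosen with earlier results of these data known. Named genes are ctbp-1, the 20 strongest members, up to 3 of each list, the extremes of the replicate ratio, those at the edges of the rule and those with GCGCAGGG. Alternatives were other windows, tRNA distances, lists, overlaps, bins and motif windows, and leaving out each replicate.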

Additional observations from a re-analysis of the deposited data

How the results depend on the processing

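With each replicate left out in turn, the other's own list gave 106 to 133 members, 46.5 to 48.6% of X summits in promoters, 3.73 to 4.65% of X genes, 33 to 35 list genes, a signal ratio of X over autosomal medians of 1.02 to 1.06 (1.09 in the series-level list), 92.5 to 97.2% of members upstream and GAGAGA at 40.6 to 49.1%. Window size moved the shares by construction: the window of 500 and 100 bp gave 30.1% of X summits (35.8% on autosomes) and 5.16% of X genes, and that of 2000 and 500 bp gave 57.2% (64.9%), 9.92% of genes, 12.04% of members in windows of both strands (29.1%) and a signal ratio of 1.05. The conservative list gave a ratio of 1.04. With tRNA genes kept, 37.002% of X summits lay in promoters (46.9%). GAGAGA was at 28.0% of summits within 50 bp and 57.97% within 150 bp (21.9 and 41.6% on autosomes), and stayed above the autosomal share in all 8 settings run. Within 150 bp CACGTG was at 5.31% (7.78% on autosomes), CCACCC or CCGCCC at 26.6% (23.5%) and the E2F words at 20.3% (18.2%). TGATAA was then at 12.6% (16.7%) and TTTCAG at 14.5% (35.3%). In bins of 2 Mb the fullest held 18.4% of members, against 10.1% in 1 Mb. Settings added after seeing the data, without snoRNA or snRNA genes, without weaker summits, or in promoters of 1 direction, moved none of the results they were run on beyond its interval or 1.5 times. Single gene lists kept within 1.5 times in 73 recounts and moved further in 19, 15 of them with a replicate left out: the ligand-gated receptors with a peak were then 0 to 1 of 30, the dosage compensation genes 0 to 1 of 6, the kinases 1 of 26, the corepressor and chromatin genes 1 of 22 and the membrane traffic genes 4 of 19. Without replicate 1 the channels with a peak were 0 and the synapse and axon genes 2. Without replicate 2 the muscle genes and the chaperones were 1 each and the other transcription factors 3. GCGCAGGG was at 2.83 to 3.01% of X summits with a replicate left out. No paired analysis was possible because there is 1 group. Read depth is unknown, so a missing peak is not shown to be an unbound promoter.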
